A study of Mus musculus with 25 samples.

Results

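The genes described here are 9 genes of DNA break repair by homologous recombination and of the damage response, taken by name from the 23116 genes of the RNA-seq table: the mediators Brca1, Brca2 and Palb2, the paralogs Rad51b, Rad51c, Xrcc2 and Xrcc3, and the kinases Atm and Atr. All 9 were among the 19221 genes with a mean of at least 0.1 FPKM (fragments per kilobase of gene length, scaled by the fragments of the library), which were tested. RNA-seq was performed on HSLAM cells (LSK+ CD150+ CD48-), the sorted population of bone marrow that is rich in hematopoietic stem cells. The cells came from 3 control mice, Znf143 f/f with Rosa26ERT2-Cre negative, and from 3 Znf143-/- mice, Znf143 f/f with Rosa26ERT2-Cre positive. All were adult C57BL/6 males of 8 to 12 weeks, were littermates and received tamoxifen, with cells taken at 10 days. The Cre is expressed from the ubiquitous Rosa26 locus and can delete the first exon of Znf143 throughout the body, so that the deletion was not limited to the sorted cells. Controls carried the same floxed alleles and the same tamoxifen but no Cre, so that Cre itself and the deletion cannot be told apart. The sample labels name the deleted genotype as a CTCF knockout, whereas the study describes a deletion of Znf143. Of the 25 samples of the series, 19 hold ChIP-seq or HiC and were not analysed here.

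Homologous recombination repairs a broken chromosome by copying the sister chromatid, and it also protects stalled replication forks. BRCA1 promotes resection of the broken ends and recruits PALB2, PALB2 recruits BRCA2, and BRCA2 starts the assembly of the repair filament on single-stranded DNA. The paralogs form the BCDX2 complex (RAD51B, RAD51C, RAD51D and XRCC2) and the CX3 complex (RAD51C and XRCC3), which help to form and stabilise this filament. ATM is activated by DNA breaks and ATR by single-stranded DNA at stressed forks, and both phosphorylate checkpoint and repair proteins. Hematopoietic stem cells are mostly quiescent and rely on these pathways when they enter the cell cycle, and inherited loss of several of these genes causes Fanconi anemia, a disease of bone marrow failure.

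The deposited FPKM rest on 38643253 to 57895793 fragments on genes per library. The third Znf143-/- library had been divided by 48378188, the divisor of the second, although 57895793 fragments lay on its genes. For this reason, all values below were brought to a common scale with size factors (median of ratios), which multiplied the deposited FPKM by 0.808 to 1.07. Zfp143, the mouse symbol of Znf143, was at 2.998, 4.32 and 3.57 FPKM in the Znf143 f/f libraries and at 0.151, 0.290 and 0.264 in the Znf143-/- libraries, which is a log2 fold change of -3.49 (limma, SE 0.24, Benjamini-Hochberg adjusted p = 0.000996). Ctcf was at 30.2 ± 1.301 and 27.7 ± 2.79 FPKM (SD, n = 3 each). All 10 stem cell markers of a fixed list, among them Kit, Ly6a, Slamf1, Procr, Hlf and Mecom, were at a mean of 1 FPKM or more. Markers of B and T cells summed to at most 0.545 FPKM in any library.

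Coordinates of the 9 genes are those of GENCODE M21 on GRCm38. Brca1 lies at chr11:101488764-101551955 on the minus strand, Brca2 at chr5:150522630-150570329 on the plus strand and Palb2 at chr7:122107262-122132985 on the minus strand. Rad51b lies at chr12:79297282-79814690 on the plus strand, Rad51c at chr11:87376645-87404954, Xrcc2 at chr5:25689812-25705825 and Xrcc3 at chr12:111803192-111813873, the last 3 on the minus strand. Atm lies at chr9:53439149-53536740 on the minus strand and Atr at chr9:95857597-95951781 on the plus strand. The listed length of each gene equals the union of its annotated exons. For Atr this union is 23629 bases while its longest transcript is 8102 bases, so that its FPKM are low for the transcripts it may make.

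RefSeq promoter windows of 300 bases (250 before and 50 after the start, GRCm38.p6) were found for 8 of the 9 genes, all but Xrcc2. ZNF143 binds a long motif, of which the letters CCCANNATG (the core) and ACTACAA (the upstream part) were searched on both strands. ACTACAA was present only in the windows of Rad51b, where it occurred at 2 places, 108 and 66 bases before the start used in the window printed here, and it was present in 3.24% of all 32851 windows. CCCANNATG was found in none of the 8 genes and in 5.01% of all windows. After the second ACTACAA of Rad51b the sequence reads cccaaaata, which differs from CCCANNATG in its last letter. Inexact matches were not searched in any window. TTTCCCGC, a motif of the E2F factors of the cell cycle, was present in windows of Brca2 and Rad51c and in 1.07% of all windows. TTTGGCGC, another E2F motif, was found in none of the 8 genes and in 0.514% of all windows. A match of letters is a description of the sequence and not a binding site. The Rad51b window is shown for its ACTACAA matches, in capitals, and the Brca1 window because it holds the starts of both Brca1 and the divergent gene Nbr1, which are compared further on. The Rad51b window is chr12:79297032-79297331 (plus strand) and the Brca1 window is chr11:101551906-101552205 (minus strand), each written 5′ to 3′.
Rad51b: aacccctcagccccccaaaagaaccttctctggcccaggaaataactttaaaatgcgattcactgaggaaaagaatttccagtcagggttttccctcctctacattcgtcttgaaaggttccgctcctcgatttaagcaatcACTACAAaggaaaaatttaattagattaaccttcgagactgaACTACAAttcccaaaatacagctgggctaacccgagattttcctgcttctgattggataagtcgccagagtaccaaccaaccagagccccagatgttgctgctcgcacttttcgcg
Brca1: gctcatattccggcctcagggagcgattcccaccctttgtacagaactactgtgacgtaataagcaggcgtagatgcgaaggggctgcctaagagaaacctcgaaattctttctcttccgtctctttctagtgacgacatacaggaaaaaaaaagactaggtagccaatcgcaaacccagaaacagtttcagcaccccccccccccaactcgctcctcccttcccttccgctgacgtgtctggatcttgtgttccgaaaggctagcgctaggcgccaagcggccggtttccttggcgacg

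None of the 9 genes passed an adjusted p of 0.05 between Znf143-/- and Znf143 f/f cells (limma, Benjamini-Hochberg over 19221 genes, lowest adjusted p = 0.181), against 6.00% of all genes tested. At an unadjusted p of 0.05, 1 of the 9 passed, against 24.2% of all genes, and with limma's voom on recovered fragments 2 did, against 25.0% of all genes and again with 0 after adjustment. Values of the Znf143 f/f and the Znf143-/- libraries did not overlap for 5 of the 9 genes, against 30.8% of all genes. Of these, 3 were lower in Znf143-/- cells (Brca1, Brca2 and Atr), against 15.3% of all genes, and 2 were higher (Rad51b and Rad51c), against 15.4%. With the FPKM as deposited, only Rad51b and Rad51c did not overlap, 2 of 9 against 25.1%. With 3 mice per genotype, the smallest p that an exact permutation test can give is 0.1, two-sided. The median log2 fold change of the 9 genes was 0.08, beside 0.01 for all genes, and without the second Znf143 f/f library it was -0.11. The cells of each mouse were sequenced in bulk, so that fewer cells of a type and less RNA per cell cannot be told apart.

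**Figure D1:**
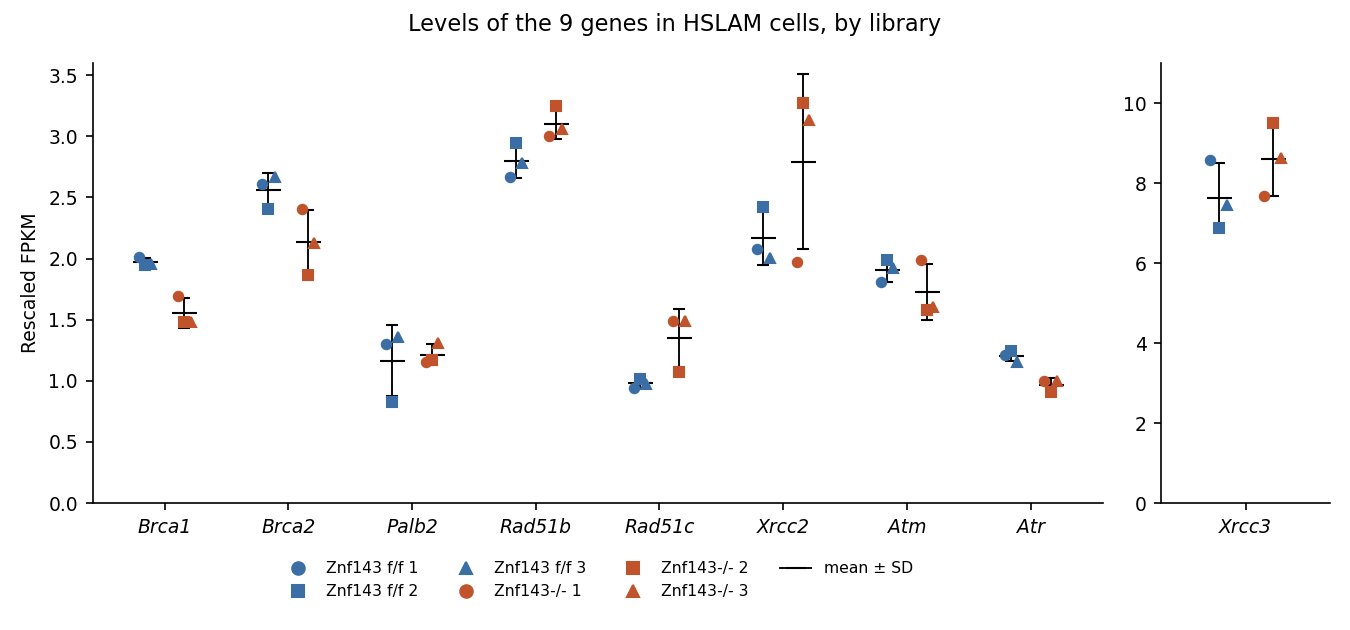
Rescaled FPKM (linear axes from 0, Xrcc3 on its own axis) of the 9 genes in each library, blue for Znf143 f/f and red for Znf143-/-, with bars for the mean ± SD of 3 mice. The groups are apart for Brca1, Brca2, Rad51b, Rad51c and Atr and overlap for Palb2, Xrcc2, Xrcc3 and Atm.

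In Znf143 f/f cells the levels per length spanned 7.80-fold between the highest and the lowest mean. Xrcc3 was highest at 7.64 ± 0.854 FPKM, followed by Rad51b (2.80 ± 0.138), Brca2 (2.56 ± 0.136), Xrcc2 (2.17 ± 0.2197), Brca1 (1.97 ± 0.0347), Atm (1.91 ± 0.0930), Atr (1.20 ± 0.0448), Palb2 (1.17 ± 0.292) and Rad51c (0.979 ± 0.0369; SD, n = 3 each). Neighbours in this order overlapped in their libraries, except for Xrcc3 above Rad51b and Atm above Atr. Xrcc3 and Rad51c, the subunits of CX3, were thus the top and the bottom of the order.

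Brca1, whose protein promotes resection and recruits PALB2, was at 2.01, 1.95 and 1.96 FPKM in the Znf143 f/f libraries and at 1.70, 1.48 and 1.48 in the Znf143-/- libraries. All Znf143-/- libraries were lower, and the Znf143 f/f libraries lay close together. The means were 1.97 ± 0.0347 and 1.55 ± 0.124 (SD, n = 3 each), which is 21.2% lower. Its log2 fold change was -0.33 (limma, SE 0.13, 95% confidence interval -0.63 to -0.02, adjusted p = 0.181). It had the lowest p of the 9 genes, and it rested on 636 to 839 fragments per library. With FPKM as deposited the libraries overlapped.

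Brca2, which acts on single-stranded DNA at the break, was at 2.61, 2.41 and 2.67 FPKM in Znf143 f/f and at 2.40, 1.87 and 2.13 in Znf143-/- cells. The groups were barely apart, since the second Znf143 f/f and the first Znf143-/- library had nearly the same value. Its log2 fold change was -0.26 (95% confidence interval -0.59 to 0.07, adjusted p = 0.302, limma). Palb2, the bridge between BRCA1 and BRCA2, was at 1.31, 0.831 and 1.36 FPKM in Znf143 f/f and at 1.16, 1.17 and 1.31 in Znf143-/- cells. Here the second Znf143 f/f library was the lowest of all 6 and the others lay together. The log2 fold change of Palb2 was 0.08 (95% confidence interval -0.43 to 0.59, adjusted p = 0.860, limma) and turned to -0.13 without that library. Palb2 shares 414 exon bases with the pseudogene Gm16326 on the other strand and Brca2 shares 41 with the antisense gene Gm42529, and the library kit keeps no strand, so reads there cannot be assigned to either gene.

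**Figure D2:**
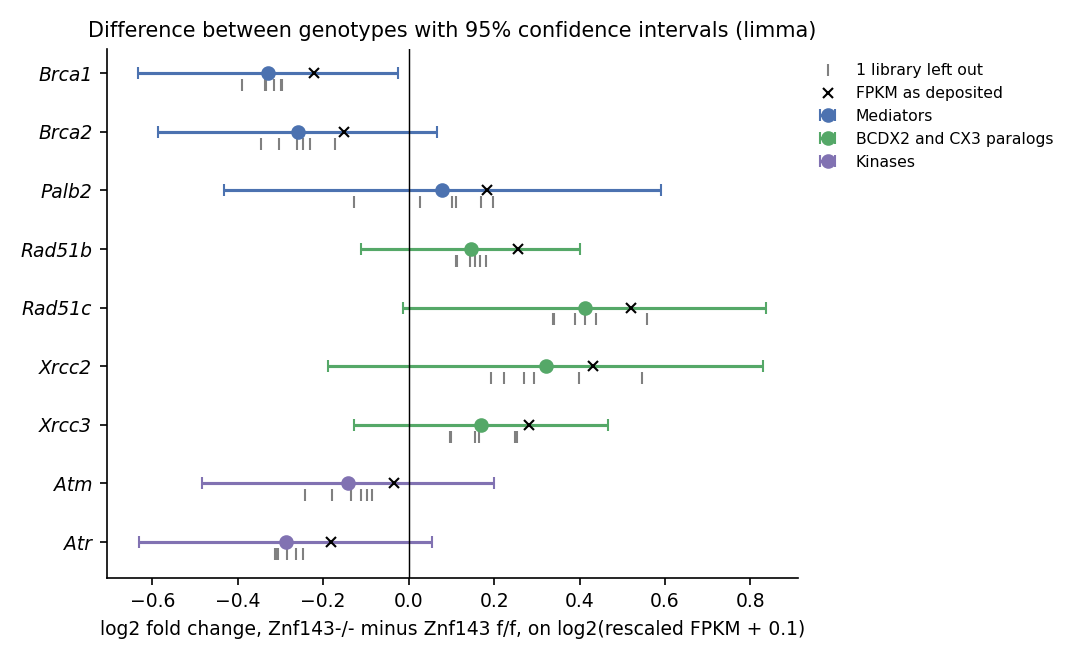
Log2 fold change of each gene (points, Znf143-/- minus Znf143 f/f, on the log2(rescaled FPKM + 0.1) scale) with its 95% confidence interval, beside the value with each library left out (grey ticks) and with FPKM as deposited (crosses). The interval of Brca1 lies below 0 and those of the other 8 genes include 0.

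Of the paralogs, all 4 had values above 0 on the log2 fold change scale, with a median of 0.25, and none passed the test. Rad51b, a subunit of BCDX2, was at 2.67, 2.94 and 2.79 FPKM in Znf143 f/f and at 3.003, 3.25 and 3.06 in Znf143-/- cells. All Znf143-/- libraries were higher, by a mean of 10.9%, and the groups were also apart as deposited. The log2 fold change was 0.15 (95% confidence interval -0.11 to 0.40, adjusted p = 0.462, limma). Its promoter window is the only one of the 8 that holds ACTACAA, as printed above.

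Rad51c, the subunit that BCDX2 and CX3 have in common, was at 0.943, 1.02 and 0.977 FPKM in Znf143 f/f and at 1.49, 1.07 and 1.49 in Znf143-/- cells. The first and the third Znf143-/- library stood well above the controls, and the second lay just above them. Mean levels were 0.979 ± 0.0369 and 1.35 ± 0.240 FPKM (SD, n = 3 each). The log2 fold change of 0.41 was the highest of the 9 genes (95% confidence interval -0.01 to 0.84, adjusted p = 0.217, limma). It rested on 163 to 390 fragments per library, the fewest of the 9 genes.

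Xrcc2, the other BCDX2 subunit, was at 2.08, 2.42 and 2.01 FPKM in Znf143 f/f and at 1.97, 3.27 and 3.13 in Znf143-/- cells. The second and the third Znf143-/- library were higher than all controls, while the first was lower than all of them. The log2 fold change was 0.32 (95% confidence interval -0.19 to 0.83, adjusted p = 0.410, limma). Without the first Znf143-/- library it was 0.55 with an adjusted p of 0.0534, the lowest adjusted p of any of the 9 genes under the 16 alternatives tried. Without the second it was 0.19 (adjusted p = 0.726, limma) and without the third 0.22 (adjusted p = 0.734). Xrcc3, the partner of RAD51C in CX3, was at 8.57, 6.89 and 7.46 FPKM in Znf143 f/f and at 7.68, 9.504 and 8.62 in Znf143-/- cells. The groups overlapped, since the first library of each genotype lay on the side of the other. Its log2 fold change was 0.17 (95% confidence interval -0.13 to 0.47, adjusted p = 0.457, limma). Xrcc3 shares 12 exon bases with Klc1 on the other strand.

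Atm, the kinase of DNA breaks, was at 1.81, 1.99 and 1.92 FPKM in Znf143 f/f and at 1.99, 1.58 and 1.61 in Znf143-/- cells. The second and the third Znf143-/- library were lower than all controls and the first was level with the highest. The log2 fold change was -0.14 (95% confidence interval -0.48 to 0.20, adjusted p = 0.598, limma). Atr, the kinase of stressed replication forks, was at 1.21, 1.25 and 1.16 FPKM in Znf143 f/f and at 1.00, 0.910 and 0.997 in Znf143-/- cells. Both groups were tight and apart, with the Znf143-/- mean 19.5% lower. Its log2 fold change was -0.29 (95% confidence interval -0.63 to 0.06, adjusted p = 0.279, limma), and the groups overlapped as deposited. Atr shares 726 exon bases with the antisense gene 1700065D16Rik, 462 with Gm16794 and 178 with the small nuclear RNA gene Gm24004, where reads cannot be assigned to 1 gene.

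**Figure D3:**
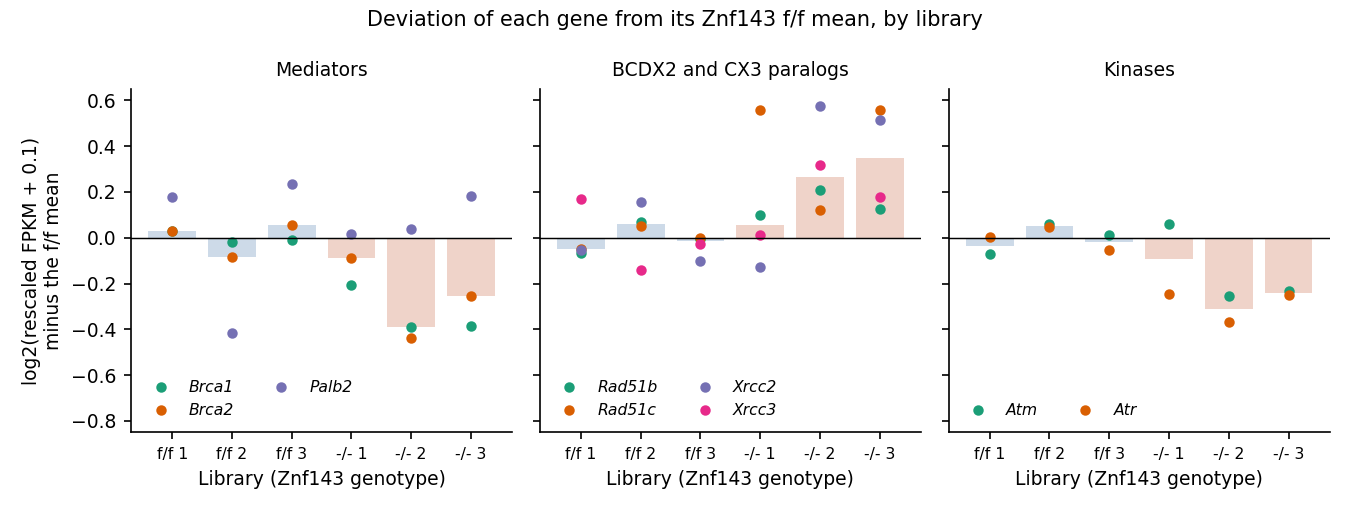
Deviation of each gene from its Znf143 f/f mean on the log2(rescaled FPKM + 0.1) scale (points) in each library, with the median of the role as a bar. In the second and the third Znf143-/- library all 4 paralogs lie above 0 and both kinases below, and the medians of the first Znf143-/- library lie nearer to 0.

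Read by library, the roles lay furthest apart in 2 of the 3 Znf143-/- mice. In the second and the third Znf143-/- library, the paralogs had a median deviation of 0.26 and 0.35 from their Znf143 f/f means on the log2 scale, with 4 of 4 above 0. The first Znf143-/- library had 0.06, with 3 of 4 above 0. The kinases had medians of -0.09, -0.31 and -0.24, and the mediators of -0.09, -0.39 and -0.26, in the first, the second and the third Znf143-/- library. Among the mediators, 1 of 3, Palb2, lay above 0 in each Znf143-/- library. Across the Znf143 f/f libraries, where centring on their own mean keeps deviations small, the medians of the roles lay between -0.08 and 0.06. These medians are descriptions of small groups, and the difference between roles was not tested.

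Direct partners of these genes were then compared, chosen for their roles after their values had been seen. Rad51d, the remaining BCDX2 subunit, was at 10.9 ± 2.28 FPKM in Znf143 f/f and 10.2 ± 0.232 in Znf143-/- cells (SD, n = 3 each), with a log2 fold change of -0.07 (95% confidence interval -0.46 to 0.32). Bard1, the partner of BRCA1 in the ubiquitin ligase, was at 1.23, 1.17 and 1.17 FPKM in Znf143 f/f and at 1.55, 0.624 and 0.936 in Znf143-/- cells. The Znf143-/- libraries of Bard1 thus lay on both sides of the controls. Atrip, which brings ATR to single-stranded DNA, was at 0.481 ± 0.0696 and 0.453 ± 0.0940 FPKM, with a log2 fold change of -0.08 (-0.62 to 0.47). Rad51d, Bard1 and Atrip overlapped between genotypes. Of all the partners compared, only Chek1 and Chek2, the effector kinases of ATR and ATM, did not overlap, against 30.8% of all genes. Neither of them passed the test. Chek1 was at 8.40, 8.07 and 9.27 FPKM in Znf143 f/f and at 9.79, 10.12 and 10.04 in Znf143-/- cells, with a log2 fold change of 0.22 (adjusted p = 0.195, limma). Chek2 was at 12.03, 10.04 and 11.2 FPKM in Znf143 f/f and at 12.3, 14.4 and 13.4 in Znf143-/- cells, with 0.27 (adjusted p = 0.190, limma). As deposited, both kinases overlapped.

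Among 37 other homologous recombination genes, 1 rose, against 3.01% of all genes, 0 fell and 36 did not pass the test, with 22 values above and 15 below 0 and a median log2 fold change of 0.05. The gene that rose was Swsap1, which forms a repair complex with ZSWIM7. Swsap1 was at 8.88, 7.35 and 7.98 FPKM in Znf143 f/f and at 11.2, 13.8 and 12.4 in Znf143-/- cells, which is 1.54-fold higher (log2 fold change 0.62, SE 0.12, adjusted p = 0.0329, limma). It was called in 8 of 16 alternatives, and not as deposited (adjusted p = 0.0748) or where the fragments of that library itself served as divisor of the third Znf143-/- library (0.0686). Leaving out the first or the third Znf143 f/f library or the second or the third Znf143-/- library also ended the call, with adjusted p of 0.0757 to 0.147.

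Of 21 other damage signalling genes, 0 passed the test (limma) and 4 had an unadjusted p under 0.05, against 24.2% of all genes. With voom these counts were also 0 and 4, against 25.0% of all genes at the unadjusted p. Tipin, of the fork protection complex, had the lowest p at 115 ± 6.09 FPKM in Znf143 f/f and 140 ± 8.81 in Znf143-/- cells (SD, n = 3 each, log2 fold change 0.28, adjusted p = 0.125). Rif1, which limits resection of breaks, was at 10.6 ± 1.06 and 8.67 ± 0.291 FPKM (-0.28, adjusted p = 0.152). Of 8 genes of end joining, the pathway that ligates broken ends directly, 2 rose, against 3.01% of all genes, and 6 did not pass. Xrcc5, the KU80 subunit of the complex that binds broken ends, was at 15.5, 15.3 and 16.7 FPKM in Znf143 f/f and at 20.4, 22.9 and 22.6 in Znf143-/- cells (log2 fold change 0.47, adjusted p = 0.0285). Nhej1, the ligation factor XLF, was at 9.64, 11.4 and 10.6 and at 15.9, 13.5 and 14.8 FPKM (log2 fold change 0.48, adjusted p = 0.0475). All Znf143-/- libraries were higher for both. Neither passed with FPKM as deposited (adjusted p = 0.109 for Xrcc5 and 0.0817 for Nhej1). Without the first or the third Znf143 f/f library or the second or the third Znf143-/- library, the adjusted p of Xrcc5 was 0.1004 to 0.158. For Nhej1 it was 0.0554 to 0.199 without these or without the first Znf143-/- library. Of 16 alternatives, Xrcc5 was called in 8 and Nhej1 in 5.

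**Figure D4:**
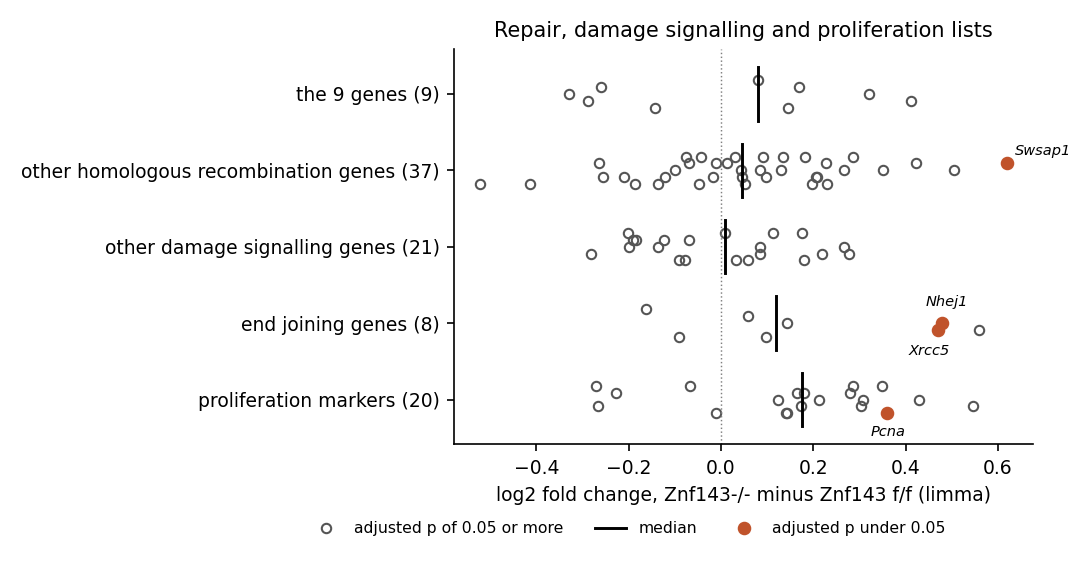
Log2 fold change (Znf143-/- minus Znf143 f/f, limma) of the 9 genes and of the genes in the repair, signalling and proliferation lists, 1 point per gene, filled where the adjusted p is under 0.05, with the median as a line. Filled points are Swsap1, Xrcc5, Nhej1 and Pcna, and none of the 9 genes is filled.

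Many repair genes are expressed with the cell cycle, so proliferation markers are given beside them. Their summed level was 815 to 947 FPKM in Znf143 f/f and 943 to 1057 in Znf143-/- libraries. Of 20 markers, 1 rose, against 3.01% of all genes, and 19 did not pass, with 15 values above and 5 below 0 and a median log2 fold change of 0.18. Mki67 (-0.27), Top2a (-0.23) and Plk1 (-0.27), named here after their values were seen, had log2 fold changes below 0 that did not pass the test. The marker that rose was Pcna, the sliding clamp of replication, at 100, 107 and 104 FPKM in Znf143 f/f and 128, 137 and 134 in Znf143-/- cells (log2 fold change 0.36, adjusted p = 0.0490, limma). Its adjusted p was 0.126 as deposited and 0.182 to 0.223 without the first or the third Znf143 f/f or the second or the third Znf143-/- library. Pcna was called in 6 of 16 alternatives. Of the other cell types, 4 of 7 granulocyte and monocyte markers rose (Elane, Ctsg, S100a8 and Csf1r), against 3.01% of all genes. Elane, Ctsg and Csf1r rested on few fragments, 4 to 563, 0 to 215 and 0 to 63 per library. All of them were below 1 FPKM in each Znf143 f/f library. The 7 markers summed to 193 to 258 FPKM in Znf143 f/f and 253 to 407 in Znf143-/- libraries. Most of these sums was Prtn3, at 118 to 220 and 137 to 271 FPKM, which did not pass the test (log2 fold change 0.03, adjusted p = 0.970, limma), so that the sums do not show the level of the 4 genes that rose. Stem cell markers summed to 478 to 531 and 746 to 792 FPKM, with Ly6a higher and Mecom lower among those that passed. Ly6a alone was at 233 to 281 and 537 to 587 FPKM, so that the sums do not show the level of the other markers. The median log2 fold change of the 10 stem cell markers was -0.34. Erythroid markers summed to 51.8, 185 and 57.0 FPKM in the Znf143 f/f libraries and to 44.7 to 46.8 in the others, the highest in the second Znf143 f/f library, in which Palb2 was lowest. Most of the 185 was Car1, which was at 14.7, 138 and 21.3 FPKM in the Znf143 f/f libraries. Of the 6 erythroid markers, 1 passed the test, against 6.00% of all genes. It was Hbb-bt, lower at 2.16 ± 0.502 and 0.774 ± 0.223 FPKM on 23 to 97 fragments (log2 fold change -1.37, adjusted p = 0.0272, limma). Hba-a1 (-0.95) and Car1 (-2.11) had log2 fold changes below 0, Klf1 (0.20) and Epor (0.39) above 0, and none of these passed. Megakaryocyte markers summed to 527 to 605 and 655 to 986 FPKM, and the 986 was in the first Znf143-/- library, in which Xrcc2 was lowest. Most of the 986 was Pf4, which was at 800, 486 and 508 FPKM in the Znf143-/- libraries. The part of any of these markers in the values of the 9 genes was not tested.

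Of the 9 genes, 7 have a divergent neighbour, a tested gene on the opposite strand that starts within 1000 bases. None of the 7 neighbours passed the adjusted threshold (limma, or voom), and 3 had an unadjusted p under 0.05, against 24.2% of all genes. The sign of the log2 fold change was that of the repair gene in 4 pairs, although for Palb2, Dctn5, Npat and 1700065D16Rik it turned under at least 1 alternative. The clearest contrast was at the promoter printed above, where Nbr1, an autophagy receptor that starts 194 bases from Brca1, was at 4.04, 2.94 and 4.23 FPKM in Znf143 f/f and at 5.15, 4.96 and 4.91 in Znf143-/- cells. All Znf143-/- libraries were higher for Nbr1 (log2 fold change 0.43, 95% confidence interval 0.06 to 0.80, adjusted p = 0.153), while they were lower for Brca1. The ratio of Brca1 to Nbr1 was 0.498, 0.663 and 0.463 in Znf143 f/f and 0.329, 0.298 and 0.302 in Znf143-/- cells (exact permutation test, two-sided, p = 0.1, the smallest that 3 against 3 allows). This ratio is within each library and does not depend on the scaling between libraries. Its separation follows from the rescaled values of both genes, which were apart in opposite directions, and is no further test.

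At Rad51b and Xrcc3 the ratio of the repair gene to its neighbour differed the other way, higher in all Znf143-/- libraries. Zfyve26, an endosomal protein gene 978 bases from Rad51b, had a log2 fold change of -0.24 (adjusted p = 0.512), and the ratio of Rad51b to Zfyve26 was 5.60, 6.83 and 5.69 in Znf143 f/f and 7.01, 9.18 and 8.57 in Znf143-/- cells. Zfyve21, 297 bases from Xrcc3, was at 24.0, 21.2 and 22.5 FPKM in Znf143 f/f and at 18.7, 19.7 and 17.0 in Znf143-/- cells (log2 fold change -0.29, adjusted p = 0.120). The ratio of Xrcc3 to Zfyve21 was 0.357, 0.324 and 0.331 in Znf143 f/f and 0.410, 0.483 and 0.506 in Znf143-/- cells. Both ratios were apart between genotypes, each with p = 0.1 in the exact permutation test. For Rad51b and Zfyve26 this follows from their rescaled values, which were apart in opposite directions. For the other 4 pairs the ratios overlapped. How often ratios of other gene pairs are apart was not tested, and single genes were apart in 30.8% of all genes. Dctn5, a dynactin subunit 56 bases from Palb2, had a log2 fold change of 0.04, and Npat, a regulator of histone genes 307 bases from Atm, had -0.06. Tex14, 111 bases from Rad51c, is a germ cell gene and was at 0.110 ± 0.0453 and 0.234 ± 0.0260 FPKM on 15 to 72 fragments (0.69, adjusted p = 0.198). The antisense gene 1700065D16Rik, which starts 725 bases from Atr and overlaps it, was at 0.332 ± 0.0612 and 0.318 ± 0.0547 FPKM (-0.05).

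**Figure D5:**
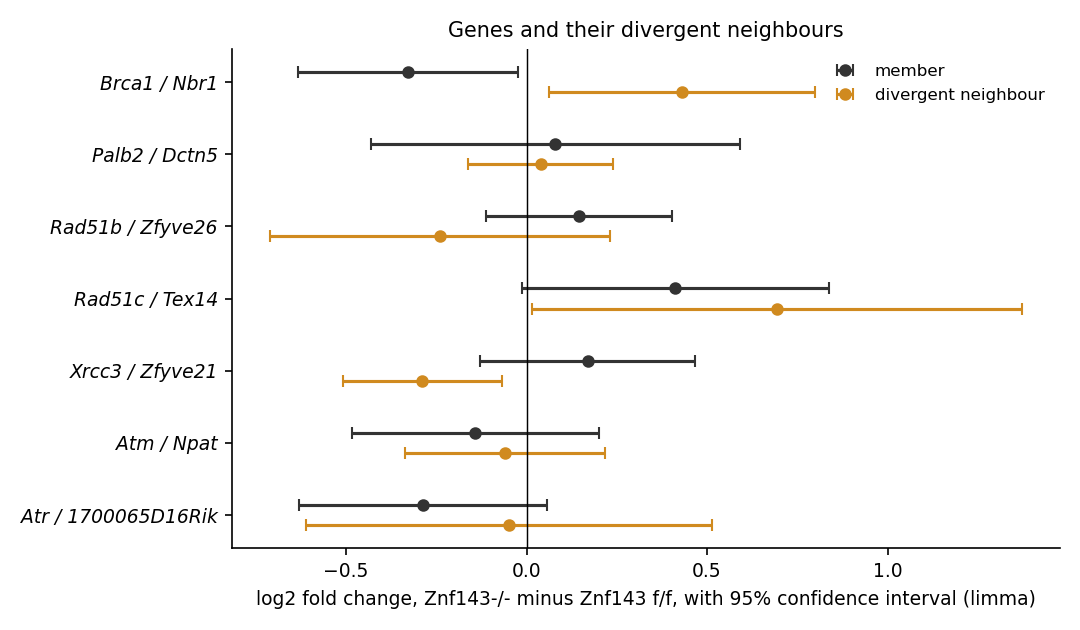
Log2 fold change (Znf143-/- minus Znf143 f/f, limma) with 95% confidence interval of 7 repair genes (black) and of their divergent neighbours (orange). Brca1 and Nbr1 have intervals on opposite sides of 0, and for Palb2, Rad51b, Atm and Atr the intervals of both genes include 0.

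For Brca1, the gene with the lowest p, the genes of most similar pattern were sought among 12440 others with a mean of 1 FPKM or more. Likeness was the root mean square difference of log2 values, centred over the 6 libraries. Arhgef18, a guanine nucleotide exchange factor, was nearest at 0.0150, followed by Dennd5a, an exchange factor for Rab GTPases, at 0.0203 and Gatad2b, a subunit of the NuRD complex, at 0.0258, while the median over all these genes was 0.274. Arhgef18 was at 4.19, 4.08 and 4.16 FPKM in Znf143 f/f and at 3.62, 3.16 and 3.22 in Znf143-/- cells.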

How the data were processed

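RNA-seq of sorted HSLAM cells was analysed, with 3 mice of each genotype. The authors prepared libraries with SMART-Seq v4 and Nextera XT, which keep no strand, used TrimGalore for trimming, STAR for alignment (GRCm38) and FeatureCounts for counting. The authors deposited FPKM per library with the gene length. Their own comparison (mean count, log2 fold change, SE, statistic, p and adjusted p) was not used. FPKM times length gave whole fragments, within 0.05, for 138677 of 138696 values.

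Since 1 divisor was used for the second and the third Znf143-/- library, the FPKM were put on a common scale with size factors (median of ratios). Genes reaching a mean of 0.1 rescaled FPKM were tested on log2(rescaled FPKM + 0.1), which understates changes of low genes, with limma 3.58.1 in R 4.3.3 (variance trend, no block, Benjamini-Hochberg). Single ratios were tested by exact permutation. Tables and permutations were made in Python 3.11.15 (pandas 2.3.3, numpy 2.4.6, scipy 1.17.1), figures in matplotlib 3.10.9. The fit was tested on simulated data with 200 changed genes. The mice were 3 littermate pairs, but no source used here links a library to its pair, and p-values measure only the spread between these mice.

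Named were the 9 genes, Zfp143 and Ctcf, list genes with an adjusted p under 0.05 (otherwise the 2 with the lowest p of a list), divergent neighbours within 1000 bases, and the 3 genes most like the one with the lowest p. Some genes of the fixed lists are not reported by name here. Members and lists were chosen with earlier results of these data known. Coordinates are from GENCODE M21 and promoter sequences from RefSeq. Alternatives were FPKM as deposited, the own fragment total as divisor of that library, upper quartile scaling, pseudocounts of 0.01 and 1, no filter, a mean of at least 1, voom on recovered fragments, no variance trend, a replicate block, and each library left out.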

Additional observations from a re-analysis of the deposited data

How the results depend on the processing

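Under all 16 alternatives 0 of the 9 genes and 0 of the 21 other damage signalling genes passed an adjusted p of 0.05, and 8 of the 9 genes kept the sign of their log2 fold change. With the replicate block, the adjusted p was 0.143 for Swsap1, 0.132 for Xrcc5, 0.181 for Nhej1 and 0.209 for Pcna. All genes past the threshold numbered 1154, of which 576 were lower and 578 higher, and 186 with the replicate block. The replicate numbers of the labels were not taken to pair the mice, since no source used here links a library to its pair. Same-numbered libraries correlated at -0.096, -0.089 and 0.037 in their deviations from the group means, and differently numbered ones at -0.044 to 0.106. With 3 libraries per genotype, these correlations cannot decide whether the numbers mark pairs. With 1 library left out, the count of all genes past the threshold was 224 to 2269, and the cause was not tested. As deposited, 304 genes were lower and 529 higher, with a median shift of all genes of 0.11 on the log2 scale. The median of the 9 genes was then 0.18, and -0.11 to 0.14 with 1 library left out.

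The count of other homologous recombination genes was 0 as deposited, without the variance trend and with the replicate block, 2 with upper quartile scaling, a mean of at least 1 FPKM and voom, and 0 to 3 with 1 library left out. The count of end joining genes was 0 as deposited, without the variance trend and with the replicate block, 1 with the own total of the third Znf143-/- library, upper quartile scaling, a pseudocount of 0.01 and voom, and 0 to 2 with 1 library left out. The count of proliferation markers was 0 as deposited, with the own total, a pseudocount of 0.01, no filter, no variance trend and the replicate block, and 0 to 4 with 1 library left out.

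Signs turned as deposited for Npat (0.052), 1700065D16Rik (0.043), Rad51d (0.044) and Atrip (0.017). With 1 library left out, the log2 fold change ran from -0.13 (without the second Znf143 f/f library) to 0.20 for Palb2, -0.0099 to 0.082 for Dctn5, -0.13 to 0.065 for 1700065D16Rik, -0.57 to 0.021 for Bard1, -0.25 to 0.042 for Rad51d and -0.19 to 0.059 for Atrip. None of these passed the test in either sign. Depth limits genes of low level, such as Tex14 and 1700065D16Rik with 15 to 72 and 35 to 64 fragments per library.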
